A study of Mus musculus with 20 samples.

Results

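The contractile apparatus of smooth muscle was followed through 10 genes: Acta2, Actg2, Myh11, Myl9, Mylk, Cald1, Cnn1, Tagln, Smtn and Lmod1. They were chosen by name and found by matching Ensembl gene IDs to symbols, as 10 of the 54532 genes in the count table, and all 10 passed the filter on low counts. RNA-seq libraries had been made from the thoracic aorta of C57BL/6J mice that were given BAPN or water for 1 week. The 4 groups were the descending aorta of mice given BAPN, the descending aorta of mice given water, the ascending aorta of mice given BAPN and the ascending aorta of mice given water, with 5 libraries each. The mice carried no transgene or mutation named in the labels, and their age, sex and BAPN dose are not given in the sources used here. BAPN (β-aminopropionitrile) inhibits lysyl oxidase enzymes, whose cross-links join the elastin and collagen fibres of the aortic wall. The comparisons ask how these genes responded to BAPN in each region, how they differed between the regions, and whether the response differed between the regions.

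Smooth muscle shortens when myosin heads pull on actin filaments. Calcium bound to calmodulin switches on myosin light chain kinase, which phosphorylates the regulatory light chain and starts the cycle, and myosin light chain phosphatase ends it. Many of these genes are driven by serum response factor with its coactivator myocardin, which act through a short promoter motif, the CArG box, and mutations in several of them in humans cause thoracic aortic aneurysm.

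The thin filament genes come first. Acta2 encodes the α-actin of vascular smooth muscle (ENSMUSG00000035783, GRCm38 chromosome 19, 34241090 to 34255590, minus strand), and Actg2 encodes the γ-actin of visceral smooth muscle (ENSMUSG00000059430, chromosome 6, 83512905 to 83536265, minus strand). Cald1 encodes caldesmon, which binds actin and holds back the myosin ATPase (ENSMUSG00000029761, chromosome 6, 34598500 to 34775473, plus strand). Cnn1 encodes calponin, another actin-bound brake on the cycle (ENSMUSG00000001349, chromosome 9, 22099216 to 22109630, plus strand). Tagln encodes transgelin or SM22, an actin-binding protein of the calponin family (ENSMUSG00000032085, chromosome 9, 45929619 to 45936058, minus strand). Smtn encodes smoothelin, which binds actin in contractile smooth muscle (ENSMUSG00000020439, chromosome 11, 3517523 to 3540612, minus strand). Lmod1 encodes leiomodin, which nucleates actin filaments (ENSMUSG00000048096, chromosome 1, 135324807 to 135368065, plus strand). On the myosin side, Myh11 encodes the smooth muscle myosin heavy chain (ENSMUSG00000018830, chromosome 16, 14194535 to 14291372, minus strand). Myl9 encodes the regulatory light chain (ENSMUSG00000067818, chromosome 2, 156775420 to 156781658, plus strand), and Mylk encodes the kinase that phosphorylates it (ENSMUSG00000022836, chromosome 16, 34745210 to 35002420, plus strand).

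Promoters are shown for 3 members on which the results turn, Acta2, Cald1 and Mylk, and for Myl9, which had the one exact CArG box; the Mylk window held no CArG box, also with 1 mismatch allowed. RefSeq promoter windows on GRCm38.p6 were matched by symbol for 7 of the 10 members, giving 8 windows because Cald1 has 2. Myh11, Tagln and Actg2 had none. Each line gives the 250 bases before the start site, 5′ to 3′ along the gene, for Acta2 (chr19:34255374-34255623, minus strand), Myl9 (chr2:156775214-156775463, plus strand), Mylk (chr16:34784700-34784949, plus strand) and the upstream start of Cald1 (chr6:34598254-34598503, plus strand). The Mylk window lies inside the gene span given above, at an internal start, so it does not describe the bases before that span. Most of the Acta2 line also lies inside its gene span. Capitals mark CArG boxes with at most 1 mismatch. The Acta2 boxes begin 84 and 34 bases before the start, the Myl9 boxes 161 and 99 bases before it, and the Cald1 box 203 bases before it.
Acta2: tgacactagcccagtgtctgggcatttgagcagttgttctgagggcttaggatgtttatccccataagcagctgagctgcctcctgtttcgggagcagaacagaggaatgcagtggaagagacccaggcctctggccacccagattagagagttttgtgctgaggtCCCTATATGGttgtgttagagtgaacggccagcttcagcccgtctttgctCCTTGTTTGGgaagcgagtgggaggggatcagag
Myl9: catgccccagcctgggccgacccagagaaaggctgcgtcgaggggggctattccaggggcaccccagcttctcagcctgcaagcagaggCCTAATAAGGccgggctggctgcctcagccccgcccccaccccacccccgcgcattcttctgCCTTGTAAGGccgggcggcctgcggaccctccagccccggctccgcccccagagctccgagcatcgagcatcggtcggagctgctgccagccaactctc
Mylk: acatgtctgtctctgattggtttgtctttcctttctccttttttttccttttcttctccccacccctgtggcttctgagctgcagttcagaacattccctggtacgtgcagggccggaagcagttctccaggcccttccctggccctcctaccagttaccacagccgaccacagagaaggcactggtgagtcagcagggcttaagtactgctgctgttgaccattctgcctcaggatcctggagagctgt
Cald1: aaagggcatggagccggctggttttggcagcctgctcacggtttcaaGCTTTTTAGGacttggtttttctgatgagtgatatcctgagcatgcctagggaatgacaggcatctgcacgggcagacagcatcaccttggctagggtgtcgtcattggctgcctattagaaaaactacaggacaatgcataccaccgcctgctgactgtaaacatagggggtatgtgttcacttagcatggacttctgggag
In windows of 300 bases (50 of them after the start), an exact CArG box, which reads the same way on both strands, occurred in 1 of the 8 member windows, that of Myl9, against 1.63% of the 32851 windows in the table. With 1 mismatch allowed it occurred in 4 of 8, those of Acta2, Cald1, Lmod1 and Myl9, against 21.1% of all windows. The MCAT element, CATTCC on either strand, occurred in 5 of 8 (Acta2, Cald1, Lmod1, Mylk and Smtn), against 14.7%. No MCAT match overlapped a CArG box. These are matches of letters and describe the windows only.

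Library depth ran from 15744725 to 23292294 counts. The labels do not say whether libraries came from separate animals, so every p-value measures the spread between these libraries, which may be technical. In whole aorta, fewer smooth muscle cells and less RNA per cell cannot be told apart. The levels of 33 pseudogenes parted the libraries, along the regions under BAPN but within both groups under water. A set with high levels held all 5 ascending BAPN libraries, ascending water 4 and 5, and descending water 1, 2 and 5. The low set held all 5 descending BAPN libraries, descending water 3 and 4, and ascending water 1 to 3. These sets are treated as batches below, although the labels name no batch. Under BAPN the regions and the batches coincide and cannot be told apart by comparing libraries within a batch; a fit with batch as a term borrows the batch difference from the water libraries. Markers of other tissues also differed between the groups. The 16 heart muscle markers summed to 81.2 to 93.7 CPM (counts scaled to a common library total of 1e6) in descending BAPN and 80.6 to 93.7 in descending water libraries, against 947.5 to 1776 in ascending BAPN and 571.8 to 1373 in ascending water libraries. In the descending aorta 8 of the 16 lay under 1 CPM in both groups, and Myl2 and Csrp3 had 0 counts in descending water. The 8 fibroblast markers summed to 3113 to 3815 CPM in descending BAPN and 3405 to 3648 in descending water libraries, against 4622 to 5099 in ascending BAPN and 4706 to 5145 in ascending water libraries. The part of these tissues in the regional differences below was not tested.

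The 10 genes together took 2.87% of all counts in descending BAPN (SD 0.105), 2.53% in descending water (SD 0.0876), 2.95% in ascending BAPN (SD 0.0747) and 2.58% in ascending water libraries (SD 0.0896; n = 5 each). Per kilobase of exon, the order of the levels was led in every group by Acta2, then Myl9, Myh11 and Cnn1. In descending BAPN libraries Acta2 averaged 6869 CPM per kb (SD 326), Myl9 2764 (SD 107), Myh11 698 (SD 50.9) and Cnn1 624 (SD 47.3). In every group all Acta2 libraries lay above all Myl9 libraries and all Myl9 libraries above all Myh11 libraries. Myh11 and Cnn1 overlapped in 3 of the 4 groups and not in ascending BAPN. Smtn, Lmod1 and Actg2 followed, between 136 CPM per kb (Actg2 in ascending water) and 213 (Smtn in ascending water). Cald1 and Mylk lay below them, at 83.8 (Mylk in descending water) to 110.5 CPM per kb (Cald1 in descending BAPN). Smtn and Lmod1 overlapped as neighbours in all 4 groups, and Cald1 and Mylk overlapped in all but descending water. Actg2 had rank 5 by its mean in descending BAPN and rank 7 in the other 3 groups.

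Tagln was the lowest of the 10 in every group, at 27.2 CPM per kb in descending BAPN (SD 2.83), 28.4 in descending water (SD 1.54), 30.4 in ascending BAPN (SD 0.982) and 30.5 in ascending water libraries (SD 3.80). Of its exon bases, 62.4% also lie in exons of the antisense gene Gm48529 and 5.43% in exons of Pcsk7, which runs on the opposite strand. Over the 20 libraries Tagln had 21350 counts, Gm48529 had 2870 and Pcsk7 had 16165. Whether counting used strand, and how reads over several genes were treated, is not given in the sources used here, so the Tagln values are uncertain, and the part of these overlaps in its level was not tested. Among the other members, 16.3% of the exon bases of Smtn lie in exons of the opposite-strand gene Gm11946, which had 489 counts against 329669 for Smtn. For the actins, no stretch of 100 bases in the transcripts of Acta2 or Actg2 occurs in another gene, and of stretches of 50 bases 0.326% of those in Acta2 are shared with Actg1 and its pseudogenes.

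**Figure D1:**
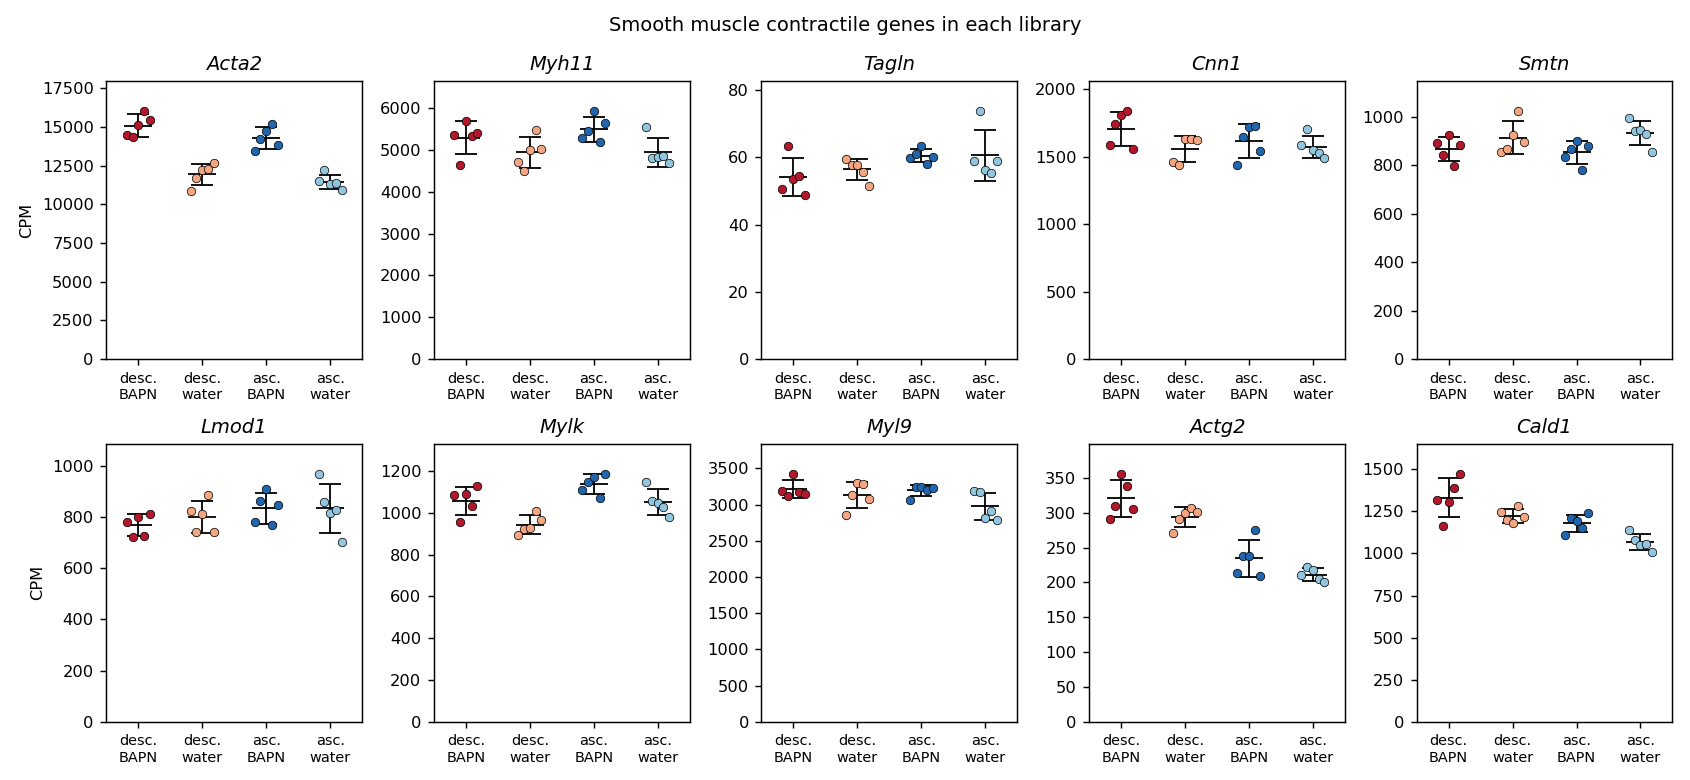
Level of each of the 10 genes in CPM (linear axis from 0) in every library, by region and treatment (desc., descending; asc., ascending); points are libraries, and bars give the mean and SD of 5. Acta2 libraries under BAPN lie above those under water in both regions, and Actg2 libraries of the descending aorta lie above those of the ascending aorta.

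Under BAPN the vascular actin gene Acta2 rose in both regions, while most other members were not called. In the descending aorta 2 of the 10 genes were called higher and 0 lower, Acta2 and the kinase gene Mylk. Over all 15543 genes tested 6.18% were called higher and 4.54% lower there (adjusted p under 0.05 in edgeR's quasi-likelihood test), or 10.7% in all. With 10 members 1 gene makes a large share, and no excess of calls is read from these counts. The split of all calls depended on the scaling, at 961 higher and 706 lower here and 706 higher and 874 lower with upper-quartile scaling. In the ascending aorta 1 of 10 was called higher, Acta2, and 0 lower, where 3.44% of all genes were called higher and 2.91% lower, 6.34% in all. The median log2 difference of the 10 genes was 0.11 in the descending aorta, where that of all genes was 0.00, and 0.11 in the ascending aorta, where that of all genes was -0.01. By sign alone 7 of 10 differences were positive in the descending and 8 of 10 in the ascending aorta. An unadjusted edgeR p under 0.05 was found for 4 of 10 members in the descending aorta, beside 3630 of all 15543 genes. In the ascending aorta it was found for 7 of 10, Smtn among them with a negative difference, beside 3137 of all genes. These counts are not calls. The medians and signs above are from the fit without batch as a term, where the members ran from -0.07 to 0.34 in the descending and from -0.13 to 0.32 in the ascending aorta. With that term they ran from -0.16 (Lmod1) to 0.30 (Acta2) in the descending aorta. In the ascending aorta they then ran from -0.05 (Smtn) to 0.355 (Acta2), so the equal medians are not read as an equal shift.

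Acta2 measured 14454, 14314, 15147, 16033 and 15472 CPM in descending BAPN libraries 1 to 5, and 10833, 11720, 12179, 12255 and 12640 CPM in descending water libraries 1 to 5. Every BAPN library lay above every water library, as was the case for 4.1% of all genes; for 3.27% every BAPN library lay below, 7.38% in either direction. The log2 difference was 0.34 (SE 0.05, edgeR adjusted p = 1.77e-05), a 1.27-fold level, with means of 15084 (SD 715) under BAPN and 11926 CPM (SD 693) under water. In the ascending aorta Acta2 measured 13444, 14227, 14701, 15175 and 13812 CPM in BAPN libraries 1 to 5, and 11488, 12192, 11296, 11361 and 10924 CPM in water libraries 1 to 5. The groups again did not overlap, as for 4.2% of all genes in that direction, 3.31% in the other and 7.51% in either, and Acta2 was the only member of which this was true in either region. There the log2 difference was 0.32 (SE 0.05, edgeR adjusted p = 5.39e-05), a 1.246-fold level. Within the low batch set, which holds 5 BAPN and 2 water libraries of the descending aorta, it was 0.30 (SE 0.06, adjusted p = 0.0194). Within the high set, with 5 BAPN and 2 water libraries of the ascending aorta, it was 0.36 (SE 0.05, adjusted p = 0.000749). The call was kept on leaving out any of the 20 libraries, with log2 differences of 0.31 to 0.36 in the descending and 0.29 to 0.34 in the ascending aorta.

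Of the other thin filament genes none was called in either region. The visceral actin gene Actg2 had a log2 difference of 0.13 (SE 0.06, edgeR adjusted p = 0.224) in the descending and 0.15 (SE 0.06, adjusted p = 0.155) in the ascending aorta. Cald1 stood at 0.12 (SE 0.05, adjusted p = 0.129) and 0.14 (SE 0.05, adjusted p = 0.0836) in the same order of regions. It passed in the descending aorta without descending BAPN 2 (0.17, adjusted p = 0.0175), and in the ascending aorta without descending BAPN 2 (0.14, adjusted p = 0.0392) or with only the ascending libraries in the fit (0.15, adjusted p = 0.0335). Cnn1 averaged 1707 CPM (SD 129) in descending BAPN and 1560 (SD 97.5) in descending water libraries, a log2 difference of 0.13 (SE 0.06, adjusted p = 0.163), and had a difference of 0.04 (SE 0.06) in the ascending aorta. Smtn had negative differences, -0.07 in the descending and -0.13 in the ascending aorta (SE 0.05 each). Its ascending means were 852 CPM (SD 46.9) under BAPN and 932 (SD 50.1) under water (adjusted p = 0.151). For Lmod1 the differences were -0.06 (SE 0.07) and 0.00 (SE 0.07), with normal-approximation intervals from -0.19 to 0.07 and from -0.13 to 0.13. For Tagln they were -0.06 (SE 0.07) and 0.00 (SE 0.07).

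On the myosin side, Mylk measured 1084, 955, 1091, 1034 and 1131 CPM in descending BAPN libraries 1 to 5, and 893, 923, 929, 1008 and 965 CPM in descending water libraries 1 to 5. The groups overlapped through BAPN library 2 and water libraries 4 and 5. Its log2 difference of 0.17 (SE 0.05, edgeR adjusted p = 0.0241) passed the threshold, but not with batch as a term (0.11, SE 0.05, adjusted p = 0.213) nor within the low set (0.12, SE 0.07, adjusted p = 0.422). With upper-quartile scaling it was 0.14 (adjusted p = 0.0565). The call was also lost without descending BAPN 1, 3 or 5 or descending water 1, 2 or 3 (adjusted p = 0.0557 to 0.0718). The ascending Mylk difference was 0.11 (SE 0.05, adjusted p = 0.165). Myh11, the motor itself, averaged 5301 CPM (SD 387) in descending BAPN and 4951 (SD 367) in descending water libraries, against which the ascending means were 5504 (SD 300) under BAPN and 4950 (SD 342) under water. Its log2 differences were 0.10 (SE 0.06, adjusted p = 0.313) in the descending and 0.15 (SE 0.06, adjusted p = 0.115) in the ascending aorta. For Myl9 they were 0.04 (SE 0.045, adjusted p = 0.682) and 0.10 (SE 0.045, adjusted p = 0.188). In the ascending aorta both genes passed with batch as a term (Myh11 at 0.22 with adjusted p = 0.0426, Myl9 at 0.17 with adjusted p = 0.0336) and within the high set (0.20 and 0.16, adjusted p = 0.0427 and 0.0431). Myh11 also passed there without ascending water 1 (0.20, adjusted p = 0.0364). Within the low set the descending differences were 0.01 (SE 0.07) for Myh11 and -0.04 (SE 0.06) for Myl9.

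No member was called for a difference of its BAPN effect between the regions, descending minus ascending, and edgeR called 0% of all genes there. At an unadjusted p under 0.05 there were 0 of the 10 members and 1070 of the 15543 genes. DESeq2 called 14 genes in this comparison (1 higher, 13 lower) and limma-voom 0, none of them a member. The members' differences of effects ran from -0.07 (Myl9, SE 0.06) to 0.09 (Cnn1, SE 0.08). For Acta2 it was 0.02 (SE 0.06), with a normal-approximation interval from -0.10 to 0.15. With batch as a term all 10 differences of effects were negative and none was called. They then ran from -0.27 (Lmod1, SE 0.11, adjusted p = 0.853) to -0.03 (Cnn1, SE 0.10), with Myl9 at -0.20 (SE 0.07, adjusted p = 0.836) and Acta2 at -0.05 (SE 0.08), so the sign for Acta2 and Cnn1 depended on that term, as it did for Mylk and Smtn.

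**Figure D2:**
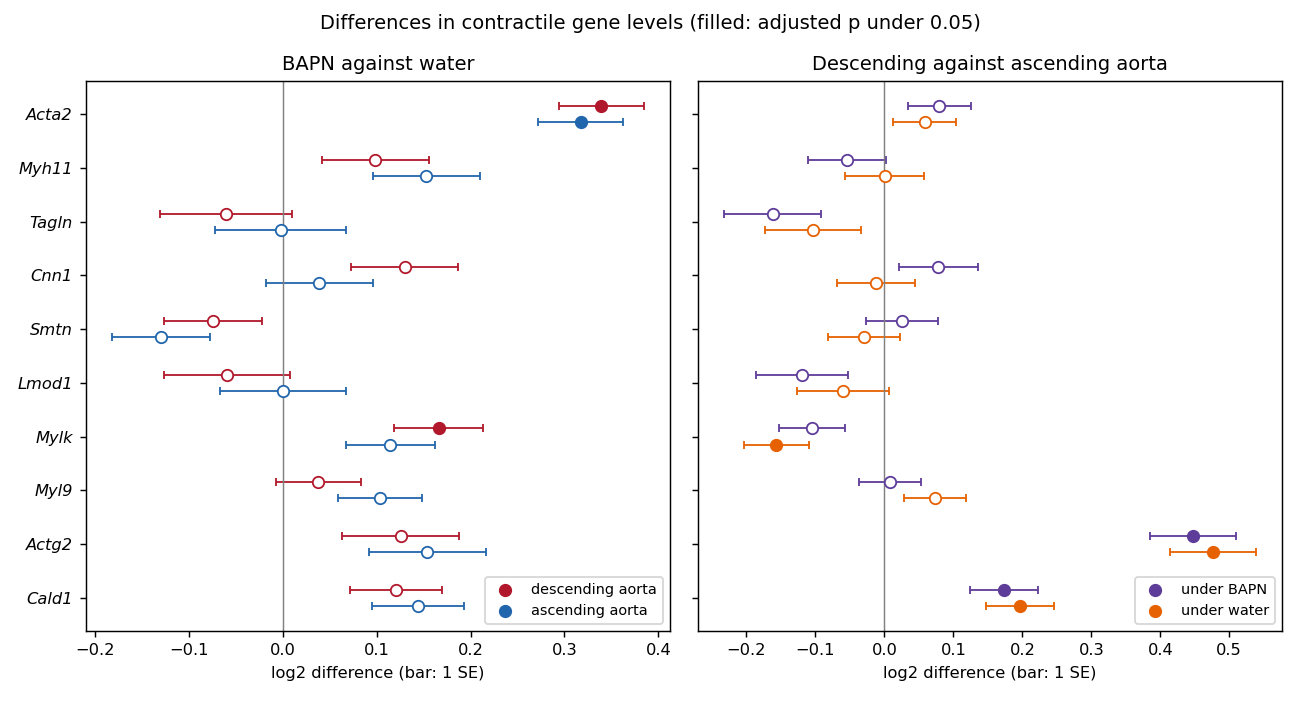
Log2 difference of each of the 10 genes in the comparisons of treatment and region, with bars of 1 SE; the left panel shows BAPN against water and the right panel descending against ascending aorta, and filled points have an adjusted p under 0.05. Acta2 stands at 0.34 in the descending and 0.32 in the ascending aorta in the response to BAPN, and Actg2 at 0.45 under BAPN and 0.48 under water between the regions.

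Because Acta2 rose and most members did not pass, the make-up of the contractile transcripts was described by ratios of counts within each library, which no scaling between libraries can alter. These ratios were picked after the values were seen, so they are given without a test. Counts of Acta2 per count of the other 9 genes summed were 0.992, 1.055, 0.979, 1.091 and 1.047 in descending BAPN libraries 1 to 5, against 0.822, 0.891, 0.861, 0.819 and 0.909 in descending water libraries 1 to 5. In the ascending aorta they were 0.968, 0.966, 0.955, 1.067 and 0.931 in BAPN libraries 1 to 5, against 0.774, 0.876, 0.847, 0.848 and 0.855 in water libraries 1 to 5. In both regions all BAPN libraries lay above all water libraries, with mean log2 differences of 0.26 (SE 0.04) in the descending and 0.22 (SE 0.05) in the ascending aorta. Within the batch sets these were 0.30 and 0.20. Myh11 per count of Acta2 averaged 0.351 (SD 0.0225) in descending BAPN and 0.416 (SD 0.0260) in descending water libraries, which did not overlap. Ascending libraries averaged 0.386 (SD 0.0266) under BAPN and 0.433 (SD 0.0318) under water, which overlapped.

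**Figure D3:**
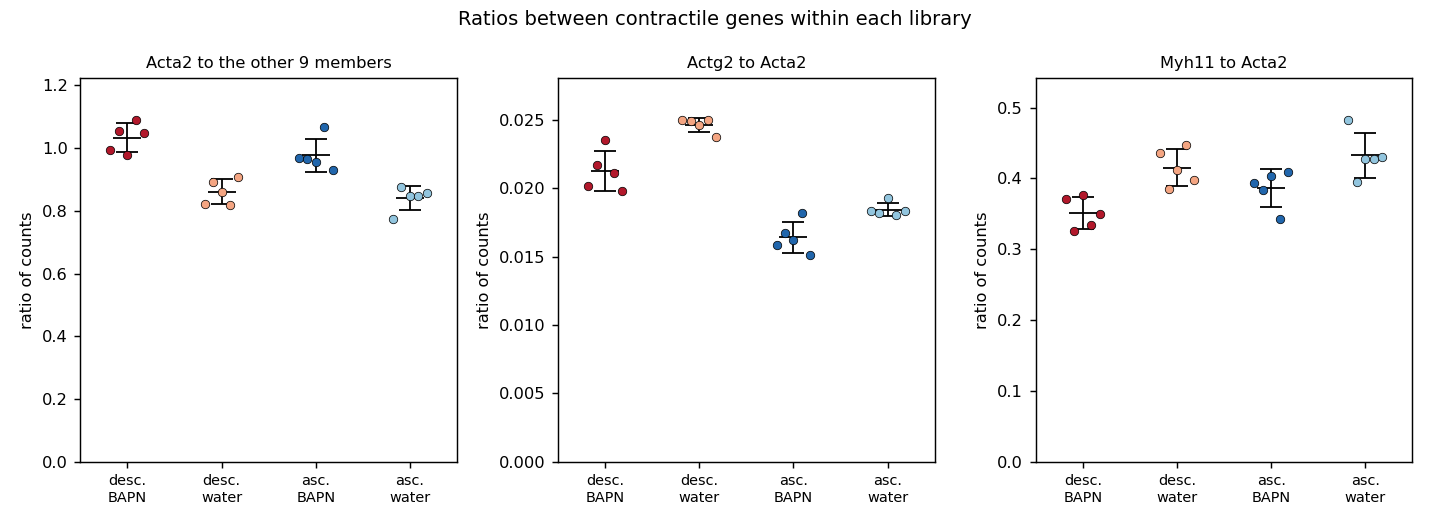
Ratios of counts within each library, for Acta2 to the other 9 genes, Actg2 to Acta2 and Myh11 to Acta2 (linear axes from 0), with the mean and SD of 5 libraries. The ratio of Acta2 to the other genes lies between 0.931 and 1.091 in all BAPN libraries and between 0.774 and 0.909 in all water libraries.

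Between the regions, the visceral actin gene Actg2 and the caldesmon gene Cald1 were higher in the descending aorta under both treatments, and most other members, Acta2 among them, were not called. Under BAPN 2 of 10 members were called higher and 0 lower, where 14.2% of all genes were called higher and 15.6% lower, 29.8% in all. Under water 2 were called higher and 1 lower, where 12.1% were called higher and 15.2% lower, 27.3% in all. The members' shares are near this background. Their median log2 difference was 0.02 under BAPN, where that of all genes was 0.01, and -0.01 under water, where that of all genes was 0.01.

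Actg2 measured 292, 310, 356, 338 and 306 CPM in descending BAPN libraries 1 to 5, against 213, 238, 238, 276 and 209 CPM in ascending BAPN libraries 1 to 5. Under water it measured 270, 292, 300, 307 and 300 CPM in descending libraries 1 to 5, against 211, 222, 218, 205 and 199.99 CPM in ascending libraries 1 to 5. Under both treatments all descending libraries lay above all ascending ones, as was so for 9.37% of all genes under BAPN and 8.37% under water. In either direction 21.4% of all genes did not overlap under BAPN and 20.1% under water, and every descending library lay below for 12.1% and 11.7%. The log2 difference was 0.45 (SE 0.06, edgeR adjusted p = 2.79e-06) under BAPN and 0.48 (SE 0.06, edgeR adjusted p = 1.12e-06) under water. With batch as a term it was 0.36 (adjusted p = 0.00382) under BAPN and 0.49 (adjusted p = 7.21e-07) under water, and within the high and the low set under water it was 0.50 and 0.48. Per count of Acta2, Actg2 averaged 0.0213 (SD 0.00147) in descending BAPN libraries and 0.0164 (SD 0.00113) in ascending BAPN libraries. Under water this ratio averaged 0.0246 (SD 0.000517) in the descending and 0.0184 (SD 0.000493) in the ascending aorta. The regions did not overlap in the ratio under either treatment. The 5 markers of pericytes, cells of small vessels that share genes with smooth muscle, summed to 1382 to 1493 CPM in descending BAPN and 1323 to 1470 in descending water libraries, against 959 to 1086 in ascending BAPN and 874 to 972 in ascending water libraries. In each group 1 of the 5 markers lay under 1 CPM, and 4 passed the filter. Whether the sums reflect pericytes or smooth muscle, and the part of either in the Actg2 difference, was not tested.

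Cald1 measured 1318, 1162, 1308, 1388 and 1475 CPM in descending BAPN libraries 1 to 5, against 1108, 1208, 1191, 1149 and 1241 CPM in ascending BAPN libraries 1 to 5. Descending BAPN 2 was the one descending library that fell among the ascending ones. Under water Cald1 measured 1245, 1196, 1179, 1280 and 1217 CPM in descending libraries 1 to 5, against 1138, 1077, 1052, 1059 and 1011 CPM in ascending libraries 1 to 5, with no overlap. The log2 difference was 0.17 (SE 0.05, edgeR adjusted p = 0.0082) under BAPN and 0.20 (SE 0.05, edgeR adjusted p = 0.00313) under water. Under BAPN the call was lost with batch as a term (0.13, SE 0.07, adjusted p = 0.235). Under water it was kept with that term (0.21, adjusted p = 0.00246) and within the high set (0.23, adjusted p = 0.0156), and not within the low set (0.18, adjusted p = 0.0709).

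Mylk was the one member called lower in the descending aorta, under water. It measured 893, 923, 929, 1008 and 965 CPM in descending water libraries 1 to 5, against 1148, 1057, 1046, 1027 and 983 CPM in ascending water libraries 1 to 5. Descending water 4 lay above ascending water 5, so the groups overlapped. The log2 difference was -0.16 (SE 0.05, edgeR adjusted p = 0.0143). The call did not hold when ascending water 1 was left out (-0.12, adjusted p = 0.0592), nor within the high (-0.12, adjusted p = 0.205) or the low set (-0.16, adjusted p = 0.115), and was kept with batch as a term (-0.14, adjusted p = 0.0242). Under BAPN the Mylk difference was -0.10 (SE 0.05, adjusted p = 0.103). The remaining members were not called under either treatment: Acta2 stood at 0.08 (SE 0.05) under BAPN and 0.06 (SE 0.05) under water, Myh11 at -0.05 and 0.00 (SE 0.06 each) and Myl9 at 0.01 and 0.07 (SE 0.045 each). Cnn1 stood at 0.08 under BAPN and -0.01 under water, Smtn at 0.02 and -0.03, Lmod1 at -0.12 and -0.06 and Tagln at -0.16 and -0.10. With batch as a term Lmod1 (-0.29, adjusted p = 0.0131) and Mylk (-0.19, adjusted p = 0.0387) were called lower under BAPN. Without single libraries further members passed under BAPN, all lower in the descending aorta: Tagln without ascending water 2 (-0.16, adjusted p = 0.0316) or descending BAPN 2 (-0.22, adjusted p = 0.0133), and Mylk without descending BAPN 5 (-0.13, adjusted p = 0.048).

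Among genes that work with the 10 members, several were called higher under BAPN in both regions. Of 14 genes for partners of the filaments, such as tropomyosins, cross-linkers and Z-disc-like adaptors, 7 were called higher and 0 lower in the descending aorta, where 6.18% of all genes were called higher, with a median log2 difference of 0.16 against 0.00 over all genes. In the ascending aorta 9 were called higher and 0 lower, where 3.44% of all genes were called higher, with a median of 0.18 against -0.01 over all genes. This list and those below were chosen with earlier results of these data known. The shares over all genes are not matched to the lists in level, and higher counts make a call easier, so no enrichment is read from them. Tpm1, the tropomyosin that lies along actin, averaged 2137 CPM (SD 84.9) in descending BAPN and 1840 (SD 27.6) in descending water libraries, a log2 difference of 0.22 (SE 0.04, edgeR adjusted p = 0.000891). Its ascending difference stood at 0.27 (SE 0.04, edgeR adjusted p = 8.87e-05). Actn1, an α-actinin that cross-links actin, rose by 0.23 (SE 0.04) and Flna, the filamin that ties actin to the membrane, rose by 0.23 (SE 0.05) in the descending aorta. Pdlim7 and Pdlim3, adaptors that bind α-actinin, rose by 0.19 and 0.24 in the ascending aorta. Leaving out single libraries gave 5 to 7 calls in the descending and 5 to 9 in the ascending aorta. With batch as a term 4 and 7 were called. With the compared groups alone 4 were called in the descending aorta, with upper-quartile scaling 5 higher and 1 lower there, and within the batch sets 0 in the descending aorta, with a median of 0.10, and 9 in the ascending aorta.

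Myocd, which encodes myocardin, averaged 143 CPM (SD 8.87) in descending BAPN and 97.1 (SD 16.3) in descending water libraries, and 137 (SD 6.19) in ascending BAPN and 93.8 (SD 8.77) in ascending water libraries. Its log2 difference was 0.56 (SE 0.08, edgeR adjusted p = 5.34e-05) in the descending and 0.54 (SE 0.08, edgeR adjusted p = 0.000103) in the ascending aorta, a larger estimate than that of any of the 10 contractile genes; the difference between genes was not tested. Within the batch sets Myocd stood at 0.61 and 0.53. Of the 4 genes of myocardin, its relatives and serum response factor, 2 were called higher in the descending aorta, Myocd and the related coactivator gene Mrtfa (0.25, SE 0.05), and 1 in the ascending aorta, with medians of 0.18 and 0.10. Of 11 non-muscle relatives of the members, 3 were called higher in the descending and 2 in the ascending aorta, and 0 lower in either, beside the same 6.18% and 3.44% of all genes called higher. Their medians were 0.11 and 0.09, and with batch as a term 1 and 2 were called. Cnn3, a calponin of many cell types, rose by 0.25 (SE 0.07) in the descending and 0.23 (SE 0.07) in the ascending aorta, and Actb, the cytoplasmic β-actin, rose by 0.14 (SE 0.04) and 0.19 (SE 0.04). Actb in the descending aorta was not called without descending BAPN 1, 2 or 3 or descending water 1, 2, 4 or 5. Cnn3 was not called in the descending aorta without descending BAPN 4 or descending water 1, nor in the ascending aorta without ascending BAPN 2, 3, 4 or 5 or ascending water 1, 3 or 4. The call of Actb in the descending aorta and that of Cnn3 in the ascending aorta were lost with batch as a term (adjusted p = 0.219 and 0.292). Leaving out single libraries gave 1 to 3 calls in this list in either region. Beside all these calls in the ascending aorta, 4 of 16 heart muscle markers (Actn2, Myl3, Tnnt2 and Tnnc1) and 1 of 4 skeletal muscle markers tested, Acta1, were called higher under BAPN, and their part in those calls was not tested. In the descending aorta 0 heart muscle and 0 skeletal muscle markers were called.

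**Figure D4:**
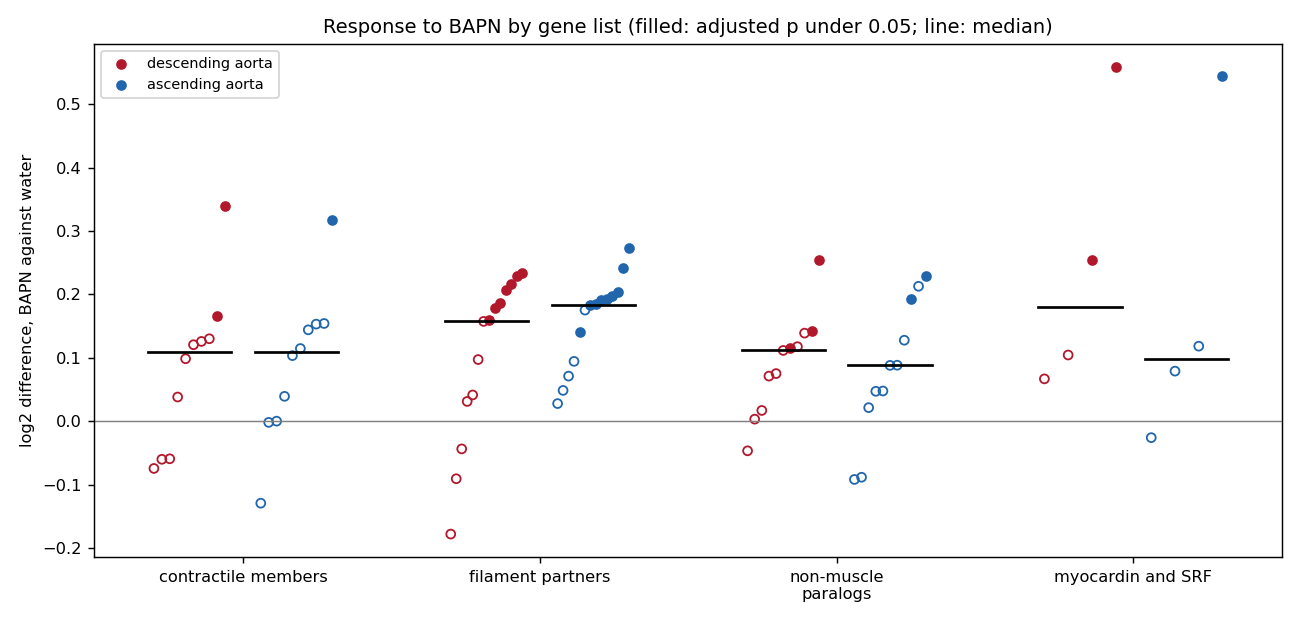
Log2 difference between BAPN and water for each tested gene of the contractile list and of 3 lists of related genes, in the descending and the ascending aorta; filled points have an adjusted p under 0.05 and lines are medians. The filament partners have 7 filled points in the descending and 9 in the ascending aorta, and Myocd stands highest at 0.56 and 0.54.

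Between the regions some related genes were also called. Des, which encodes the intermediate filament desmin, averaged 85.3 CPM (SD 12.4) in descending BAPN against 206 (SD 15.2) in ascending BAPN libraries, a log2 difference of -1.27 (SE 0.08, edgeR adjusted p = 2.21e-12). Under water it averaged 83.5 CPM (SD 6.51) in the descending and 199.5 (SD 19.3) in the ascending aorta, a difference of -1.26 (SE 0.08, edgeR adjusted p = 2.8e-12). Synm, another filament partner, was lower in the descending aorta at -0.55 under BAPN (edgeR adjusted p = 2.55e-07) and -0.30 under water (edgeR adjusted p = 0.000739). Pdlim3 was lower there at -0.35 under BAPN and -0.32 under water. Desmin is also a protein of heart and skeletal muscle, and all 16 heart muscle markers were called lower in the descending aorta under both treatments. The part of heart muscle RNA in these differences was not tested. In the whole filament partner list 3 genes were called higher and 5 lower under BAPN, and 2 higher and 3 lower under water, where 14.2% and 15.6% of all genes were called higher and lower under BAPN and 12.1% and 15.2% under water. With batch as a term 0 were called higher and 5 lower under BAPN, with a median log2 difference of -0.16 against -0.08 without it. Pdlim7, one of those called higher under BAPN (0.21, edgeR adjusted p = 0.000341), stood at 0.12 with that term (adjusted p = 0.144). Of the 11 non-muscle relatives, 1 was called higher and 1 lower under BAPN, and 2 higher and 2 lower under water. Cnn3 was the one called higher under BAPN, at 0.305 (edgeR adjusted p = 0.000829). Tpm4, a tropomyosin of many cell types, was lower in the descending aorta at -0.26 under BAPN and -0.28 under water (SE 0.04 each).

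Within groups the libraries were close. The SD of log2 CPM within groups ran from 0.07 (Myl9 and Acta2) to 0.12 (Tagln and Lmod1), against a median of 0.14 over all genes tested. The members did not all vary together from library to library. After subtraction of group means, 45 pairs of members were correlated over the 20 libraries, which share their scaling. The correlations were added after values were seen, so their p-values only describe these libraries. Subtracting group means leaves the batch split within both water groups, and the permutations kept neither batches nor replicate numbers together. No share over pairs of all genes was computed, so the count of pairs below is not read as particular to these genes. By Pearson's r 18 pairs passed at an adjusted p under 0.05 over the 45 pairs (100000 permutations within groups), all positive, and 17 of them also by Spearman's coefficient. Myh11 and Mylk had r = 0.872 and Spearman's coefficient = 0.902 (permutation p = 6e-05 and 1e-05, the second being the smallest they can give; adjusted p = 0.0018 and 0.00045). Without the 2 libraries farthest from the median this r was 0.786, and it was 0.798 in the high and 0.906 in the low batch set. Smtn and Lmod1 had r = 0.817 and Spearman's coefficient = 0.823 (permutation p = 8e-05 and 0.00013, adjusted p = 0.0018 and 0.00135), with r = 0.79 without the 2 farthest libraries, 0.725 in the high and 0.796 in the low set. Cnn1 and Actg2 had r = 0.801 and Spearman's coefficient = 0.842 (permutation p = 0.00018 and 0.00015, adjusted p = 0.00202 and 0.00135), with r = 0.785 without the 2 farthest, 0.779 in the high and 0.794 in the low set. Acta2 and Actg2 had r = 0.746 and Spearman's coefficient = 0.80 (permutation p = 0.00045 and 0.00026, adjusted p = 0.0027 and 0.00195), with r = 0.726 without the 2 farthest, 0.819 in the high and 0.523 in the low set. Actg2 and Mylk had r = 0.009 (Spearman's coefficient = 0.0722; permutation p = 0.972 and 0.786, adjusted p = 0.996 and 0.874), with r = -0.05 without the 2 farthest, -0.28 in the high and -0.06 in the low set. Tagln passed with no other member.

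**Figure D5:**
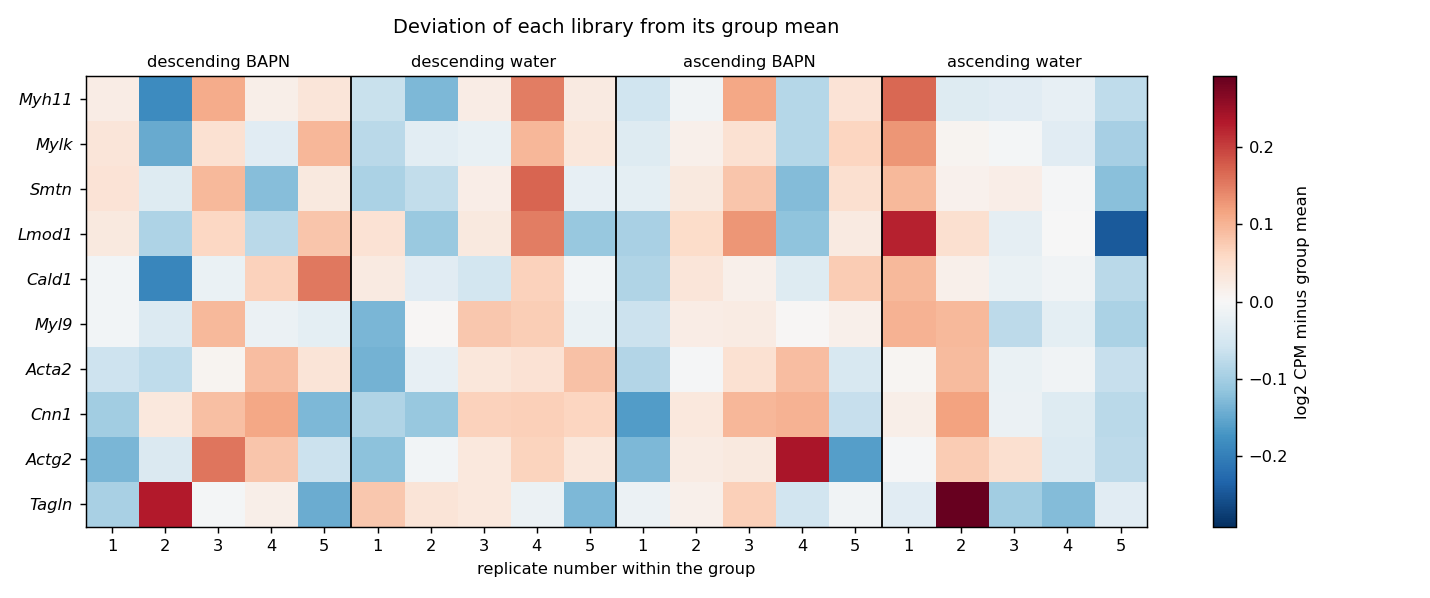
Colour map of log2 CPM minus the group mean, with a row per contractile gene and a column per library, numbered by replicate within each group; red is above and blue below the group mean. Myh11, Mylk, Smtn and Lmod1 are all above it in ascending water 1 (0.10 to 0.23) and descending water 4 (0.10 to 0.17), and the strongest single deviation is that of Tagln in ascending water 2, at 0.29.

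Among 7423 other genes averaging 20 CPM or more, those whose centred log2 CPM over the 20 libraries lay nearest to the median profile of the 10 members were Paf1, Mtss1l, Ubr3, Gnai2 and Lix1l. Their root mean square distances were 0.0412 to 0.0509, against a median of 0.128 over the candidates. That median profile was nearly flat, at -0.151 to 0.133 over the 20 libraries. Genes that vary little therefore lie near it, and this nearness is not read as a shared pattern. Nearest to the profile of Acta2 alone were Mertk, Kif13a, Wdr1, Hspa5 and Ankib1, at 0.0512 to 0.0701 against a median of 0.201. Under BAPN these 5 had log2 differences of 0.33 to 0.38 in the descending and 0.27 to 0.33 in the ascending aorta. They were picked for nearness to Acta2 over these same libraries, so differences like those of Acta2 follow from the choice.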

How the data were processed

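Per the labels' protocols, total RNA was purified on columns of a kit meant for fibrous tissue before library preparation. The deposited values are the authors' raw counts of reads per Ensembl gene. The tools were fastp, HTSeq 0.6.1 and STAR 2.5 on mm10, per the submitters' processing notes. Their settings, the strand option and the annotation are not given in the sources used here. Symbols, exons and coordinates come from GENCODE M21 on GRCm38, which matched 54409 gene IDs and not the other 123. Symbols with several IDs kept the ID with most counts.

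Genes were filtered with filterByExpr (minimum count 10, minimum total 15), leaving 15543. Scaling factors were trimmed means of M values (TMM). In R 4.3.3, edgeR 4.0.16 fitted 1 quasi-likelihood model with 4 group coefficients, which left 16 residual degrees of freedom. Within each comparison, Benjamini-Hochberg adjustment ran over all genes tested, and an adjusted p under 0.05 is a call. SE is that of the log2 difference, and n is 5 libraries per group throughout. CPM are computed from the counts on the scaled library sizes, and levels per kb use the union of annotated exons. Batches are the sides of the widest gap (1.73, next 0.506) on the first principal component of 33 genes marked -ps with a mean of at least 2 CPM.

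The members and the lists were chosen with earlier results of these data known. All 10 members are named, and from each other list at most 3 genes with the smallest p in a comparison, beside their values elsewhere; heart and skeletal muscle markers that passed were named after their values were seen. Ratios, correlations and the genes nearest to Acta2 were added after values were seen. Alternatives were other scalings (relative log expression, upper quartile, factors without members and genes of other tissues), no filter or 1 CPM in 5 libraries, DESeq2 1.42.0, limma-voom (limma 3.58.1), the compared groups alone, a replicate block, batch, single libraries left out, and a minimum fold. The minimum fold was 1.25. The pipeline was tested on simulated data. One list of related genes is not reported here.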

Additional observations from a re-analysis of the deposited data

Results flagged for a closer look

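In 7 of 52 groups of 5 libraries, 1 library stood apart, with a gap to the nearest other of more than 0.71 of the group's range. Chance flags about 1 in 20 groups. Myh11 in ascending water 1 measured 5552 CPM, and the next highest library 4857. Myl9 measured 3429 CPM in descending BAPN 3 (next 3192) and 3058 CPM in ascending BAPN 1 (next 3200). Tagln in ascending water 2 measured 73.8 CPM (next 58.97). Counts of Acta2 per count of the other 9 genes were 1.067 in ascending BAPN 4 (next 0.968) and 0.774 in ascending water 1 (next 0.847). Actg2 per count of Acta2 was 0.0193 in ascending water 3 (next 0.0183). None of these libraries, left out singly, ended the BAPN call of Acta2.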

How the results depend on the processing

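Counts of the 10 genes called differed by setting. In the response to BAPN in the ascending aorta, 1 gene was called, against 2 with only the compared groups in the fit, 3 with batch as a term, 3 within the high batch set, 0 with a minimum fold in addition, and 1 to 2 on leaving out each library. In the descending aorta 2 were called, against 1 with upper-quartile scaling, 1 with only the compared groups, 1 with batch as a term, 1 within the low set, 1 with the minimum fold, and 1 to 3 on leaving out each library. Between the regions, 2 were called under BAPN, both higher, against 3 with upper-quartile scaling (Mylk lower added), 3 with only the compared groups (Tagln lower added), 3 with batch as a term (Lmod1 and Mylk lower added, Cald1 lost), 1 with the minimum fold and 2 to 3 on leaving out each library. Under water 3 were called, against 2 within the high set, 1 within the low set, 1 with the minimum fold and 2 to 3 on leaving out each library. The minimum fold only removes small changes, and within a set fewer libraries remain; for the other settings the cause was not tested. Relative log expression factors, DESeq2 and limma-voom gave the same counts as the values reported. For single members, 1520 values under alternatives kept their direction and side of the threshold or moved by less than the replicate spread, 15 lost a call, 17 gained one and 8 not called moved across 0; none reversed. Allowing 1 mismatch moved the count of member promoter windows with a CArG box to 4, against 1 exact.

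The labels do not say what a replicate number marks. Same-numbered libraries had deviations correlated at -0.06 to 0.167 over 30 pairs, 4 of them above 0.1, and 11 of 30 correlated best with their own number. Between the regions under BAPN all 5 pairs were positive (0.064 to 0.106) and all 5 correlated best with their own number, a hint from the data and not from the design, while under water the pairs ran from -0.05 to 0.104. Not every pair was above 0.1 in either case, a mark that cannot decide pairing. The main fit did not pair the libraries because the labels name no pairing, and whether both regions came from 1 animal is not known. With the replicate block 1 gene was called in the ascending and 2 in the descending response, 3 between the regions under BAPN, 3 under water and 0 for the difference of effects. With the block within treatment there were 3, 3 and 0 for the last 3 comparisons. The added call was Tagln under BAPN, lower at -0.17 (adjusted p = 0.0328 and 0.0383). Within-batch fits of the regions under BAPN and of the difference of effects could not be made, since no set holds all the groups they need. The standard errors of single members limit what these libraries can show. On the log2 scale they were 0.045 to 0.07 between groups and 0.064 to 0.099 for the difference of effects. With batch as a term that of Tagln for the difference of effects was 0.131.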
